A study of Danio rerio with 3 samples.

Results

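The 28 sequences described here are small RNAs from zebrafish larvae that the authors named after a known zebrafish hairpin. In place of a miRNA name they carry a predicted arm, written -p3 for the 3′ arm and -p5 for the 5′ arm. They were chosen by name alone, as every row beginning dre-mir- that carries such an arm, and 29 rows held 28 distinct sequences of 1202 in all. By their names, 18 were of the 3′ arm and 10 of the 5′ arm, from 26 hairpins. These placements are the authors' and were not checked against hairpin sequences. The larvae were wild-type AB zebrafish, taken whole at 7 days after fertilisation, and were the offspring (F1) of treated or untreated parents. From 6 hours after fertilisation the parents lived 90 days without antibiotics (control, 0 mg/L) or in a mix of β-diketone antibiotics of equal weight, at 6.25 mg/L (low dose) or 12.5 mg/L (high dose). The mix held the tetracyclines oxytetracycline, chlortetracycline and doxycycline and the fluoroquinolones enrofloxacin, ciprofloxacin and ofluoxacin. Each parental dose is 1 library, and the sources used here do not say how many larvae it held, so no difference has a replicate check and none was tested. "Higher" and "lower" therefore describe these libraries, and the intervals cover counting error only.

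A miRNA is cut from a hairpin by Drosha and then Dicer, which leaves a short duplex with overhanging 3′ ends. One strand, usually the one whose 5′ end is less tightly paired or begins with U, is kept by an Argonaute protein and silences mRNAs through its seed, bases 2 to 8. The other strand, the passenger, is mostly degraded, and older databases often left it unnamed. Where a strand comes from 1 hairpin only, both strands share a transcript, so the ratio of their reads does not depend on how strongly that hairpin is transcribed or on the scaling of a library.

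The 1202 listed sequences summed to 4534557 (control), 5099264 (low dose) and 6041242 (high dose) reads, which is not the depth of the whole libraries. Of these listed reads, the predicted arms took 2969 reads (0.0655%, 95% exact binomial interval 0.0631 to 0.0679), 3927 (0.0770%, 0.0746 to 0.0795) and 4579 (0.0758%, 0.0736 to 0.0780) in that order. Of 21 tissue-marker miRNAs looked for, 18 had a zebrafish-named form. Of these, 16 had reads in all 3 libraries, among them markers of muscle, neurons, liver, pancreas, skin and gut, while miR-194a and miR-126b were at or near 0. No form was listed for miR-216a of pancreas or for miR-142b and miR-223 of leukocytes. In whole-body RNA, fewer cells of a type and less RNA per cell cannot be told apart.

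The 10 most abundant predicted arms are shown with the most abundant read of the annotated arm of their hairpin, because their levels and their pairing carry the results that follow. Sequences are given 5′ to 3′ as the table writes them, with T for U and the seed in capitals. In the names of annotated reads, R and L mark bases added (+) or missing (-) at the 3′ and the 5′ end.
mir-726-p5 with A4G: gGAGTTCCgctagttctgaact
miR-726_R+1: tTCACTACtagcagaactcggt
mir-2184-p3: aGCACATTgtctcttacttgta
miR-2184_R+1: aACAGTAAgagtttatgtgctg
mir-194b-p3: cCCATGGAgaagctgttacctg
miR-194b: tGTAACAGccgctccatgtgga
mir-729-p5: cGGGGTTGtattgtaaccaagct
miR-729_L-1R-1: aTGGGTATgatacgacctgggt
mir-125a-1-p3: cAGGTGAGgtcctcaggaaca
miR-125a_R+1: tCCCTGAGacccttaacctgtga
mir-31-p3: tGCTATGCctccatattgccatt
miR-31_L+1R+1: tGGCAAGAtgttggcatagctgt
mir-728-p5: aAATGTAGtagactataagtat
miR-728: aTACTAAGtacactacgttttc
mir-7a-3-p3: aACAAACCgcagtcgtcctct
miR-7a: tGGAAGACtagtgattttgttgt
mir-217-p3: cATCAGTTcctgatgcactc
miR-217_R+1: tACTGCATcaggaactgattgga
mir-736-p5: aAGCTTTTtgtttgtgttatgt
miR-736_R+1: gTAAGACGaacaaaaagttttt

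The predicted arms differed from their annotated partners in their first base. Of the 16 predicted arms whose normalised reads averaged at least 10, 2 began with T, 5 with A, 2 with G and 7 with C. Of their 16 annotated partners, 9 began with T, 6 with A, 1 with G and 0 with C. The first base is that of the most abundant read of an arm. The reads of miR-729 and miR-34b lack the annotated first base, and that of miR-31 has a base added. The same contrast was present in 73 other zebrafish miRNA names listed with both arms. Reads were grouped by name without a copy number, so 1 name may pool several hairpins. There the scarcer arm began with T in 13 and with C in 23, and the more abundant arm with T in 44 and with C in 6. Length and base composition were alike: the predicted arms had a median length of 22 nt (range 20 to 23) and a median GC content of 46.6%, and the partners 22 nt (21 to 23) and 46.6%. The 12 predicted arms under a mean of 10 also had a median of 22 nt, but 8 of them were 21 to 23 nt long, against 15 of the 16 more abundant ones.

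Most predicted arms paired with the annotated arm of their own hairpin, which their placement on that hairpin by the authors already implies. Each predicted arm was folded in silico with the leading read of each of 25 annotated arms, and the partner of its own hairpin gave the lowest free energy for 15 of the 16 more abundant members and for 8 of the 12 scarce ones. The more abundant members formed 13 to 19 base pairs with their partner (median 16.5; median energy -21.7 kcal/mol), and in 11 of 16 both 3′ ends overhung by 1 to 3 bases. The duplex of mir-31 shows the form, here with paired bases in capitals, 17 pairs (-26.7 kcal/mol) and an overhang of 2 at both ends.
mir-31-p3, paired: tGCTATGCCtcCATaTTGCCAtt
miR-31_L+1R+1, paired: TGGCAAgATGttGGCATAGCtgt

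For 5 members the partner taken from the name did not give the lowest energy. The scarce mir-125a-2-p3 (18 nt) formed 4 pairs with miR-125a and ranked 22nd of 25. The read named mir-462-p3 with A19T ranked 13th. Despite its name, this 19 nt read is not a 1-base variant of the 22 nt mir-462-p3. The rank of mir-21-1-p5 was 12th. The name miR-21 gives no arm, so its read may lie on the 5′ arm too. The rank of mir-21-1-p5 would then say nothing of its hairpin. For mir-130c-2-p3 with A18T, miR-21 gave -18.3 kcal/mol against -11.9 for miR-130c-5p, and for mir-2191-p5 miR-133a-3p gave -14.3 against -14.2. The C23T form of mir-133a-2-p5 shared a run of 19 bases with the annotated miR-133a-5p, so it lies on an arm that has a name. These free energies are predictions, and a rank among 25 arms is a description, not a test.

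**Figure D1:**
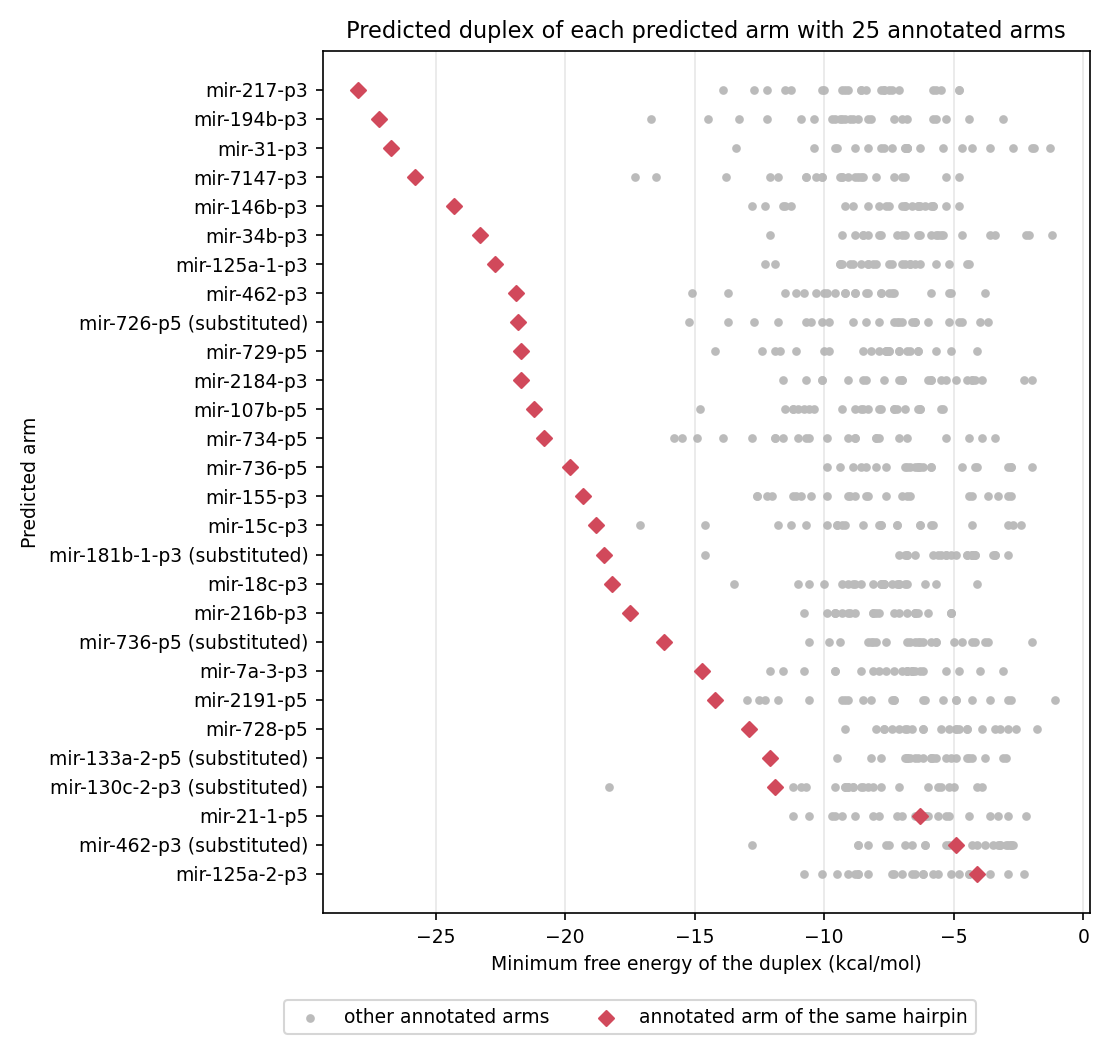
Minimum free energy (kcal/mol, x axis) of each of the 28 predicted arms folded with the annotated arm of its own hairpin (diamonds) and with the other annotated arms (grey points), ordered by the own-partner energy. The diamond lies at the far left for 23 members, from -28.0 kcal/mol for mir-217-p3, behind 1 grey point for mir-130c-2-p3 and for mir-2191-p5 (where the diamond covers that point, at -14.3), and inside the grey points for mir-21-1-p5, mir-125a-2-p3 and the substituted mir-462-p3.

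In abundance, the predicted arms spanned from 1403 normalised reads to none. The authors' normalised value is the read estimate times 1 factor per library (1.18, 1.02 and 0.709 in order of dose). By their mean, 7 members had 100 or more normalised reads, 16 had 10 or more, and 12 had fewer than 10. Reads were present for 24 members in control, 27 at the low dose and 25 at the high dose. The first pair alone, mir-726-p5 and mir-2184-p3, held 56.9%, 53.3% and 52.1% of all predicted-arm reads. A count of 3, the floor used for a member at 0, corresponds to 3.54, 3.06 and 2.13 normalised reads.

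**Figure D2:**
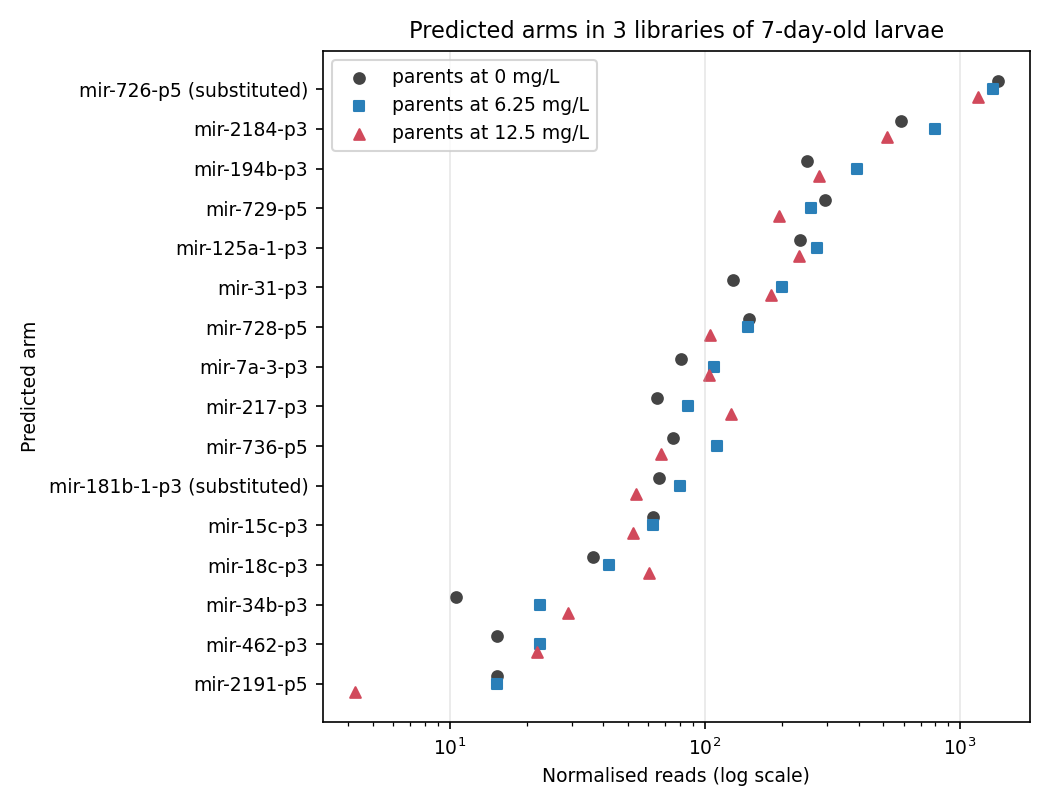
Normalised reads (log x axis) of the 16 predicted arms with a mean of 10 or more, 1 point per library of larvae from control, low-dose and high-dose parents. The levels run from 1403 for mir-726-p5 in control down to 4.25 for mir-2191-p5 at the high dose.

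Set against the annotated arm, summed over its zebrafish-named forms, no predicted arm was the more abundant strand in any library. Over the 27 pairs with at least 20 reads of both arms together in each library, the median share of the predicted arm was 0.356% in control, 0.605% at the low dose and 0.693% at the high dose. The highest shares were 35.9%, 33.1% and 39.2%. Without members whose names carry a copy number, whose annotated reads may come from several hairpins, the medians were 0.700%, 0.887% and 1.04%. mir-217 and mir-146b, numbered in their RefSeq symbols only, stayed in. Shares of 10% or more were found in 6, 6 and 5 pairs, and shares under 1% in 17, 17 and 16 pairs. Both forms of mir-736-p5 share an annotated arm, as do both reads named mir-462-p3, and mir-125a-1-p3 with mir-125a-2-p3. The pair of mir-21-1-p5 is counted, though the name miR-21 gives no arm and may be of the same arm. Also counted are the mir-462-p3 read with A19T, which had 0 reads throughout, and mir-125a-2-p3 and mir-133a-2-p5, each with 0, 1 and 1. The named miR-133a-5p, on the arm of mir-133a-2-p5, had 1883, 1725 and 2705 reads that are not in that share. In the 73 miRNA names listed with both arms, the scarcer arm had a median share of 2.87%, 3.77% and 3.17%, with 23, 25 and 27 at 10% or more. Some of these names may pool several hairpins. Their shares sum all zebrafish-named forms of both arms, while a predicted share counts 1 sequence, so the medians do not compare like with like.

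**Figure D3:**
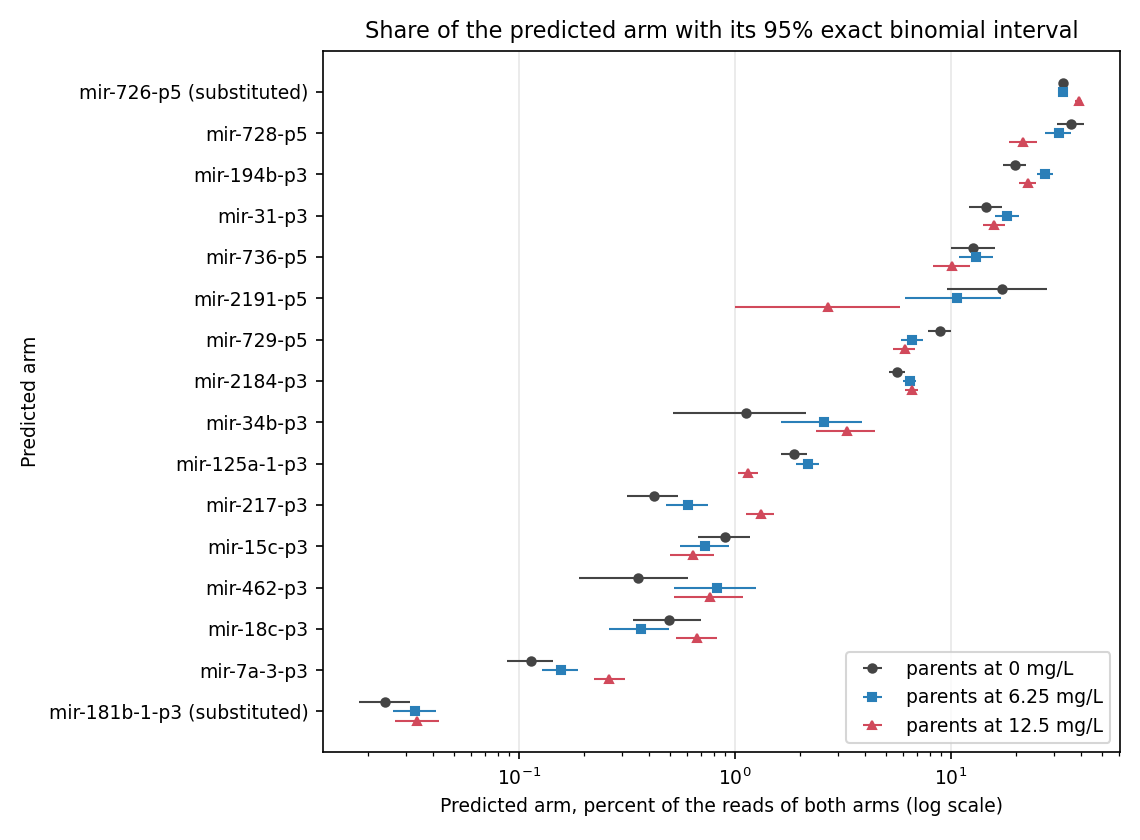
Reads of the predicted arm as a percent of the reads of both arms (log x axis), with the 95% exact binomial interval, for the 16 more abundant members and each library. The shares span from 0.0242% for mir-181b-1-p3 to 39.2% for mir-726-p5, and mir-728-p5, mir-217-p3 and mir-7a-3-p3 are among those whose high-dose interval stands clear of the control interval.

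The parental dose comparisons over the 16 more abundant members left few past 2-fold, on the scale of log2(normalised reads + 1). At the low dose against control, 1 was at least 2-fold higher (mir-34b-p3), against 2.55% of 471 sequences with a mean of 10 or more, and 0 were lower, against 2.55%. At the high dose against control, 1 was higher (mir-34b-p3), against 10.8%, and 1 lower (mir-2191-p5), against 4.25%. At the high against the low dose, 0 were higher, against 11.0%, and 1 lower (mir-2191-p5), against 3.4%. Median log2 ratios of the 16 were 0.33, -0.08 and -0.24 in that order, and those of the 471 were 0.11, 0.08 and -0.00209. The median at the high dose against control was 0.23 when libraries were scaled to equal totals (which shifts every ratio by 0.32), and that of the high against the low dose was 0.0370, so neither sign holds across scalings. The calls are few and rest on small counts. mir-2191-p5 passed the minimum mean through the control and low-dose libraries (15.3 and 15.3 normalised reads, against 4.25 at the high dose), so its lower value is given as a description only. With a pseudocount of 10, mir-34b-p3 had log2 ratios of 0.66 and 0.92 at the doses and mir-2191-p5 -0.83 at the high dose, under the 2-fold rule, and mir-34b-p3 had 0.94 at the low dose when scaled by the median of ratios. With equal totals, mir-217-p3 (1.27) and mir-18c-p3 (1.02) passed it against control. Both dosed libraries are set against the same control library.

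The fish families, miRNAs described from zebrafish, held 10 of the 28 members, and 7 of these had a mean of 10 or more. None of the 7 was 2-fold higher in any comparison, against 2.55%, 10.8% and 11.0% of the 471 sequences. At the high dose 1, mir-2191-p5, was lower than in control and than at the low dose, against 4.25% and 3.4%. Their median log2 ratios were -0.000984 and -0.26 against control at the doses, beside 0.11 and 0.08 over the 471. At the high against the low dose their median was -0.50, beside -0.00209. The -0.26 is the ratio of mir-726-p5, which ran from -0.37 to 0.0640 across scalings, so its sign does not hold. mir-726-p5, read with G at a position where the hairpin is said to have A (A4G, counted from the 5′ end), was the most abundant predicted arm. It stood at 1403 normalised reads in control, 1340.4 at the low dose and 1174 at the high dose. Its share was 33.2% (31.6 to 34.8) in control, 33.1% (31.7 to 34.6) at the low dose and 39.2% (37.7 to 40.7) at the high dose, so the high-dose library stood above the others. The annotated miR-726 arm was lower there (2824, 2703 and 1822 normalised reads).

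mir-728-p5 lost share with dose while its partner gained reads. It had 149, 148.1 and 104 normalised reads, and annotated miR-728 had 265, 321 and 377. Its share was 35.9% (30.9 to 41.2), 31.6% (27.4 to 36.1) and 21.7% (18.6 to 24.9) in order of dose, and the high-dose interval overlapped neither of the others. The odds of the predicted arm, its reads over those of its partner, were 0.494 times those of control at the high dose (95% Woolf interval 0.372 to 0.656) and 0.825 times at the low dose (0.615 to 1.11).

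mir-2191-p5 showed the widest change of share but rests on few reads, 13, 15 and 6. Its share was 17.3% (9.57 to 27.8) in control, 10.7% (6.12 to 17.1) at the low dose and 2.71% (1.00 to 5.82) at the high dose, where the library lay below the control interval. Its normalised level was 15.3, 15.3 and 4.25, a ratio of 0.277 at the high dose against control (0.0865 to 0.782), while annotated miR-2191 had 73.1, 127.7 and 152.4. This member did not pair best with its own partner, as given above.

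mir-2184-p3 was highest at the low dose, at 589, 799.9 and 518 normalised reads, and its share was 5.63% (5.16 to 6.13), 6.45% (6.02 to 6.90) and 6.58% (6.13 to 7.06). mir-729-p5 was lower with dose, at 296, 259 and 195.7, with shares of 8.87% (7.85 to 9.98), 6.62% (5.85 to 7.45) and 6.11% (5.43 to 6.85). mir-736-p5 was highest at the low dose (74.9, 112 and 67.4), but its shares of 12.7%, 13.1% and 10.1% had overlapping intervals. mir-462-p3, from the hypoxia- and interferon-linked miR-462 that lies next to miR-731, had 13, 22 and 31 reads. Its share was 0.356% (0.190 to 0.608), 0.831% (0.522 to 1.26) and 0.768% (0.522 to 1.09), with annotated miR-462 lower at both doses than in control (4292, 2682 and 2840.2 normalised reads).

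Among hairpins known from the nervous system, 4 of 5 members had a mean of 10 or more. Their median log2 ratios against control were 0.35 and 0.17, beside 0.11 and 0.08 over the 471 sequences. Of the 4, only mir-34b-p3 was at least 2-fold higher, at both doses, against 2.55% and 10.8% of the 471, and its family is also known from other tissues. mir-7a-3-p3, from the neuronal and endocrine miR-7, had 80.2, 108 and 104 normalised reads, while annotated miR-7a had 70328, 69097 and 39226.5. Its share was 0.114% (0.0885 to 0.144) in control, 0.156% (0.128 to 0.189) at the low dose and 0.263% (0.222 to 0.309) at the high dose, where the interval lay above both others. The odds against control were 2.30 at the high dose (1.73 to 3.07). Reads of the annotated arm may also come from other miR-7a hairpins, and against its most abundant form alone the shares were 0.221%, 0.324% and 0.574%.

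mir-125a-1-p3 went the other way. With the authors' factors it was nearly level at 236, 276 and 233 normalised reads, while miR-125a of the lin-4 family had 12264, 12371 and 20024. Across scalings, the log2 ratio of the predicted arm at the high dose against control ran from -0.13 to 0.30. The share of the predicted arm was 1.89% (1.64 to 2.16), 2.18% (1.93 to 2.45) and 1.15% (1.03 to 1.28). Its odds at the high dose were 0.605 times control (0.507 to 0.722), and here too the annotated read may come from more than 1 hairpin copy. A salmon-named miR-125b 3p read with the same seed had 84.9, 127 and 70.9 normalised reads.

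mir-34b-p3, from miR-34, a family linked to p53 and ciliated cells in mammals, was the only predicted arm of the 16 at least 2-fold higher than control at both doses. Its reads were few, 9, 22 and 41, or 10.6, 22.5 and 29.1 normalised. The ratio to control was 2.12 at the low dose (0.937 to 5.22), an interval that includes 1, and 2.74 at the high dose (1.31 to 6.41). Annotated miR-34b had 929.6, 845 and 848 normalised reads, and the share of the predicted arm was 1.13% (0.518 to 2.13), 2.59% (1.63 to 3.90) and 3.31% (2.39 to 4.47). It shares its seed with miR-34c-3p, whose gene is next to that of miR-34b, as the sequences show.
mir-34b-p3: aATCACTAaccatactgccaac
miR-34c-3p: aATCACTAacctcactaccagg
miR-34c-3p had 121.5, 152.2 and 152.4 normalised reads, a log2 ratio of 0.32 at each dose.

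mir-181b-1-p3 with C22T, at 66.1, 79.7 and 53.9 normalised reads, had the smallest shares of the 16 (0.0242%, 0.0332% and 0.0340%, with overlapping intervals; 0.0434%, 0.0584% and 0.0620% against the most abundant annotated form alone). Its partner miR-181b-5p is among the abundant miRNAs of these larvae. The predicted arm shares a run of 14 bases with a salmon-named miR-181b-3p read (237, 300.4 and 262 normalised reads). Whether reads were split between these names was not tested.

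For the pancreatic hairpin mir-217 the arms lay on opposite sides. mir-217-p3, the passenger of miR-217 of exocrine pancreas, had 64.9, 85.8 and 126.2 normalised reads, and annotated miR-217 had 15301, 14098 and 9439. Its share was 0.422% (0.318 to 0.549) in control, 0.605% (0.483 to 0.749) at the low dose and 1.32% (1.13 to 1.53) at the high dose, where the interval lay above both others. The odds at the high dose were 3.13 times control (2.32 to 4.24) and at the low dose 1.43 times (1.02 to 2.01). RefSeq lists 1 gene for this hairpin with numbered copies among its names, so annotated reads may come from more than 1 copy here too. Its level was 1.95-fold that of control at the high dose (1.43 to 2.68), just under the 2-fold rule. mir-216b-p3, from a pancreatic hairpin whose gene is also next to miR-216a, had 6, 11 and 12 reads and shares of 0.0192%, 0.0241% and 0.0215%, with overlapping intervals.

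For the epithelial hairpins, mir-194b-p3 of the intestine and kidney was highest at the low dose, at 251, 395 and 281 normalised reads, a ratio to control of 1.57 (1.33 to 1.87) at the low dose. Annotated miR-194b had 1020.4, 1053 and 955 normalised reads, and the share was 19.8% (17.4 to 22.3), 27.3% (24.99 to 29.7) and 22.7% (20.8 to 24.8), so the low-dose library stood above the control interval. mir-31-p3, from a hairpin known in mammals from skin epithelium, had 128.6, 201 and 180.8 normalised reads and was 1.57-fold (1.23 to 2.00) and 1.41-fold (1.12 to 1.78) control. Its partner was also higher (753, 904 and 957), and the shares of 14.6%, 18.2% and 15.9% had overlapping intervals, though the odds at the low dose were 1.30 times control (1.01 to 1.68).

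Both members from the cell proliferation clusters had a mean of 10 or more. mir-18c-p3, of a paralog of the miR-17-92 cluster, had 36.6, 41.9 and 60.3 normalised reads and a ratio to control of 1.65 at the high dose (1.08 to 2.57). Its share was 0.495%, 0.367% and 0.672%, and the intervals of the dosed libraries did not overlap (0.263 to 0.497 and 0.537 to 0.830). mir-15c-p3, of the miR-15 and miR-16 family that restrains the cell cycle, had 62.5, 62.3 and 52.5 normalised reads and shares of 0.905%, 0.730% and 0.640%, with overlapping intervals.

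The remaining scarce members had few reads. The blood and immune hairpins gave mir-146b-p3 with 3, 6 and 16 reads and mir-155-p3 with 2 reads at the low dose alone. For mir-155-p3 a count of 0 allows a share of up to 1.09% in control and 1.36% at the high dose by the 3-count floor, and the exact 95% intervals reach 1.33% and 1.66%. mir-734-p5 had 2, 6 and 14 reads, with odds at the high dose of 4.25 times control (1.11 to 16.3), mir-107b-p5 6, 3 and 3, and mir-7147-p3 1, 2 and 2. mir-130c-2-p3 had 0.5, 4 and 6 and mir-21-1-p5 1.5, 4 and 3. mir-125a-2-p3 and mir-133a-2-p5, the only muscle hairpin, each had 0, 1 and 1. The T18C form of mir-736-p5 had 0.5, 0.5 and 0, and the read named mir-462-p3 with A19T is listed at 0 throughout.

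The ratio of the arms, which needs no scaling, differed between libraries beyond counting error for some pairs. At the low dose against control, the odds interval lay above 1 for 7 of 27 pairs and below 1 for 1 (mir-729-p5). In the 73 miRNA names listed with both arms, it lay above 1 for the scarcer arm in 28.8% and below 1 in 19.2%. Where such a name pools several hairpins, its ratio may also move with how strongly each is transcribed. The same limit holds for predicted pairs whose annotated reads may come from several hairpins, among them mir-7a-3-p3, mir-125a-1-p3 and mir-217-p3. At the high dose against control it lay above 1 for 7, among them the scarce mir-734-p5 with 2 reads in control, and below 1 for 4 of the predicted pairs, against 37.0% and 28.8%. At the high against the low dose it lay above 1 for 4 and below 1 for 4, against 28.8% and 34.2%. The predicted arms had fewer reads to show a change with, a median of 72 over the libraries against 1090 for the scarcer arm of the named pairs. The percent of predicted pairs was below that background in each comparison and direction.

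The arms of some pairs, including pairs whose annotated reads may come from several hairpins, lay on different sides of 0. At the high dose against control this held for 10 of the 16 pairs, against 47.0% of 66 named pairs whose scarcer arm also averaged at least 10. The named pairs were counted with the authors' factors only, so counts under every scaling have no background. Under every scaling tried it held for 5 of the 10, namely mir-217, mir-7a-3, mir-728, mir-462 and mir-2191. Of these, mir-2191-p5 had 13, 15 and 6 reads in order of dose. It passed the minimum mean through the control and low-dose libraries, so its place here is a description only. At the high dose against control, all 5 had an odds interval that excluded 1, with mir-462-p3 at 2.12 times control (1.12 to 4.02). Between the doses, the interval also excluded 1 for mir-217, mir-7a-3, mir-728 and mir-2191, and not for mir-462. At the low dose against control the arms of 9 of 16 pairs lay apart (5 under every scaling), against 47.0%, and at the high against the low dose those of 7 (4 under every scaling), against 39.4%. Across the 16 pairs, the log2 ratios of the predicted and annotated arms had Pearson's r of -0.35, -0.44 and -0.22 and Spearman's rho of -0.34, -0.27 and -0.10. These points share their libraries, and several rest on few reads, so the values are given as a description.

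**Figure D4:**
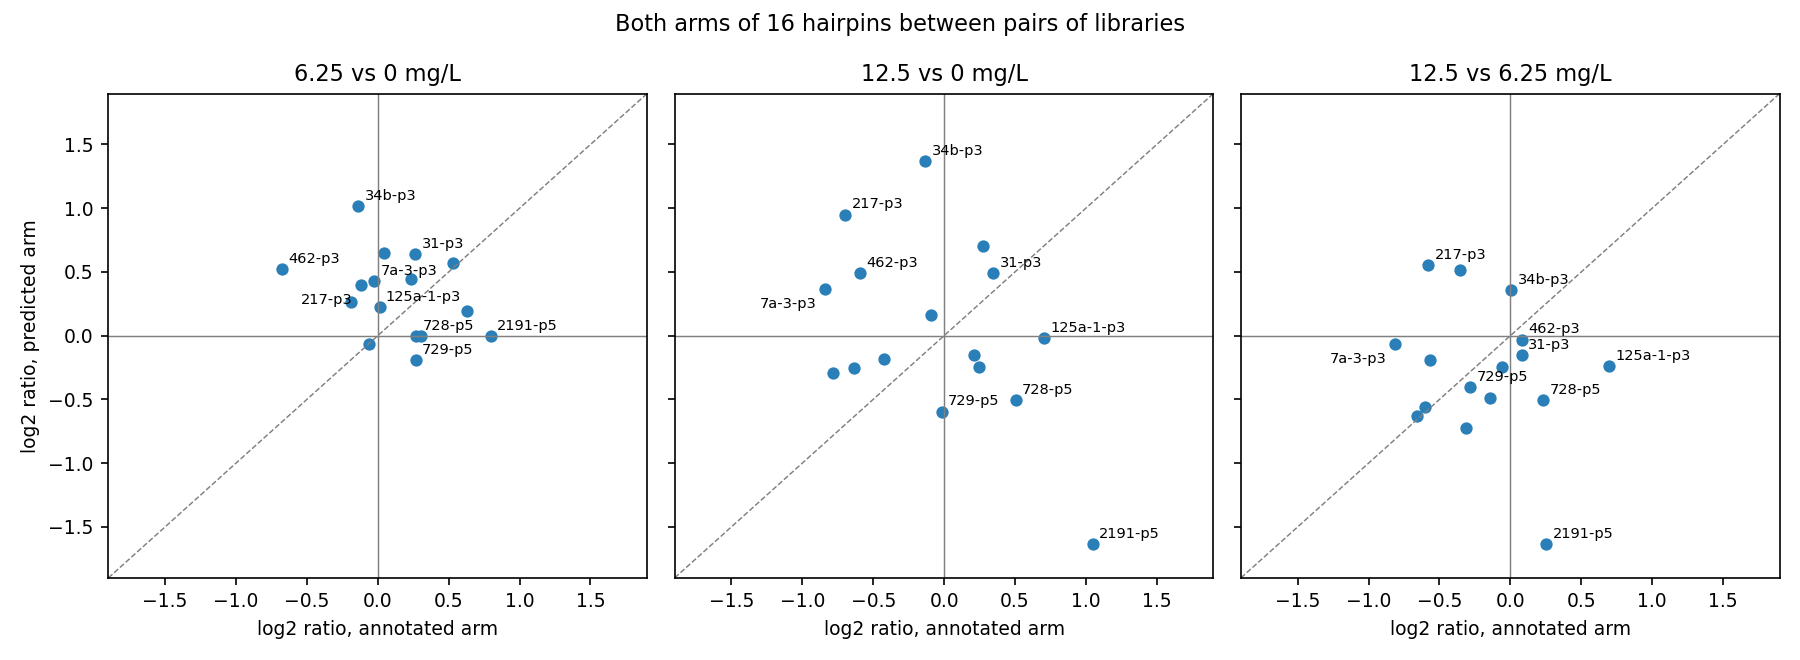
log2 ratio of normalised reads (pseudocount 1) of the predicted arm (y axis) against that of the annotated arm (x axis) for 16 hairpins, 1 panel per pair of libraries, with equal change on the dashed line. At the high dose against control, mir-217-p3 lies at 0.95 with its partner at -0.70, and mir-2191-p5 at -1.64 with its partner at 1.05. The point of mir-2191-p5 is a description only, because it passed the minimum mean through the control and low-dose libraries.

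In the genome, 25 of the 26 hairpins matched a RefSeq gene (assembly GRCz12tu, used here for gene order only), and 10 of them had another miRNA gene as the next gene. Among these were mir-34b beside mir-34c, mir-462 beside mir-731, mir-15c beside mir-16a, mir-18c beside mir-20b and mir-217 beside mir-216a. Of the 28 seeds, 5 occurred in another sequence of the table, including the T18C pair of mir-736-p5 and mir-130c-2-p3, which shares its seed with a salmon-named miR-143-5p.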

How the data were processed

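Small RNA libraries (TruSeq, single-end reads of 36 bp, per the labels' protocols) of whole larvae were sequenced, 1 per parental dose. The submitters' processing notes name the build Zv9; the sources used here name no aligner or counting rule. Raw values were deposited by the authors as estimated counts, labelled raw in the file headers, of which 78 of 84 member values were whole (tolerance 1e-09). The authors deposited a normalised signal, labelled norm in the file headers, which equals the raw value times 1 factor per library. The chi-square p-value that the authors deposited, per the file headers, compares single libraries and was not used. Of rows with the same sequence only the most abundant was kept, and the reads of the others were not added to it. The authors' 3 pairwise tables were not used.

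Annotated arms are sums of zebrafish-named forms of the opposite arm. Annotated names without an arm were taken as the opposite arm, which was not checked against the hairpins. Ratios of normalised values carry exact Clopper-Pearson intervals of rounded counts, shares exact binomial intervals (95%), and odds ratios Woolf intervals with 0.5 added to each count (SciPy 1.17.1). Duplexes were folded with RNAcofold (ViennaRNA 2.7.2). Interval code was tested on simulated data. Members named were the 10 most abundant, the 5 highest and 5 lowest ratios of each comparison with a mean of 10 or more, and the 5 widest changes of share; other members are given in brief. PCR reads are not independent molecules. The members and lists were chosen with earlier results of these data known. The odds ratios, the ranking of duplex energies and the miRNA names listed with both arms were added after seeing the data. So were the seed and shared-run searches and the counts of opposite arms, under every scaling and in named pairs. No hairpin sequence was used, so the planned fold of the hairpin was replaced by that of the reads. Alternatives covered the pseudocount, scaling, filter, forms and read minimum.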

Additional observations from a re-analysis of the deposited data

How the results depend on the processing

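The counts of members past 2-fold were small and moved with the settings. A pseudocount of 10, or a mean of 100 or more, left 0 higher at 6.25 and at 12.5 mg/L against control and 0 lower at 12.5 mg/L against either library, and scaling by the median of ratios left 0 higher at 6.25 mg/L. Equal library totals gave 3 higher at 12.5 mg/L against control (mir-34b-p3, mir-217-p3 and mir-18c-p3), with a median log2 ratio of 0.23, and a median of 0.0370 between the doses. With no filter, 6 members were higher at 6.25 mg/L, 4 higher and 2 lower at 12.5 mg/L against control and 2 lower between the doses, and the median at 12.5 mg/L against control was 0.15. Without substituted members that median was 0.0716. The cause was not tested, except that equal totals shift every log2 ratio by 0.32 at 12.5 mg/L against control and 0.28 between the doses. For mir-34b-p3 a pseudocount of 10 gave log2 ratios of 0.66 and 0.92 at the doses, and for mir-2191-p5 -0.83. No predicted arm exceeded its partner under any alternative for the arms. Median shares of 0.356%, 0.605% and 0.693% became 0.700%, 0.887% and 1.04% without members whose names carry a copy number. That alternative was chosen after seeing the data, as was the sum of unsubstituted annotated forms. These moves were within the medians of the pairs' counting intervals, the tolerance used. No paired analysis was possible because each group has 1 library. Depth limits the 12 members under a mean of 10, whose intervals mostly span more than 2-fold.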
